A study of Caenorhabditis elegans with 10 samples.

Results

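The RNA of whole worms was compared between GMC101 and CL2122 after 8 h and after 24 h at 25°C, and the question asked here was which genes changed differently over that time in the 2 strains. GMC101 carries the human Aβ1-42 peptide under the promoter of the body wall muscle myosin gene unc-54, together with GFP under the intestinal mtl-2 promoter. CL2122 carries the empty unc-54 vector and the same mtl-2 GFP marker, so that the marker is common to both strains. Both were synchronized and raised at 20°C to young adults before the shift to 25°C, and no unshifted worms were compared. For each gene, the log2 ratio of GMC101 to CL2122 at 8 h was subtracted from that at 24 h, and this quantity is called the double difference. It is above 0 where GMC101 stood higher relative to CL2122 at 24 h than at 8 h. Genes present in the tables of both times with at least 50 normalized counts in 1 or more of the 4 strain and time columns were taken, which gave 13539 genes of 18538 in both tables and of 22554 in either.

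In C. elegans, young adulthood is a time of fast change in transcription. The hermaphrodite stops making sperm at the end of larval life and then makes oocytes, the intestine produces vitellogenins, the yolk proteins that are secreted and taken up by oocytes through the receptor RME-2, and the hypodermis finishes the collagens of the adult cuticle. Shifts to a warmer temperature and misfolded proteins both induce heat shock genes through the transcription factor HSF-1. Aβ in muscle is toxic and leads to paralysis in GMC101 worms at the higher temperature.

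The tables held 1 value per strain and time, although 3 samples of each strain are labelled for 24 h and 2 for 8 h, so that no replicate spread was available and no p-value is given. Each of the 4 strain and time columns is called a library below, and how the labelled samples were combined in it is not stated. Reads on genes ranged from 20533034 to 25283085 per library. Each double difference was given a 95% counting interval, which covers counting error only and not the variation between worm populations. The 2 times were normalized in separate tables, so that time and any technical difference between the tables cannot be told apart. Strain ratios were taken inside each table. Normalized counts are therefore compared between strains, and changes from 8 h to 24 h are given as log2 ratios of CPM, the reads of a gene scaled to a common library total. The labels give the stage as L1, whereas markers of adult tissue were abundant in all 4 libraries: vit-2 of the adult intestine lay between 12649 and 17145 CPM, and rme-2 of oocytes between 546 and 895 CPM. Among larval markers, the collagen col-17 lay between 0.554 and 18.8 CPM, mlt-10 between 4.63 and 23.9 CPM, and nas-37 between 24.1 and 40.1 CPM. The RNA of mlt-10 was higher at 24 h than at 8 h in both strains. The transgene's own RNA was not analysed here.

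Of the 13539 genes, 13058 had more than 3 reads in each of the 4 libraries and are called measured below. A further 246 had 1 to 3 reads in a library, 57 allowed only a bound because a library held 0 reads, and 178 had 3 reads or fewer in both strains at a time and were given no fold. A gene was called when its double difference was beyond 1 on the log2 scale in either direction and its counting interval lay on the same side of 0. By this rule 1271 genes were called higher, 9.73% of the measured genes, and 860 were called lower, 6.59%. The median double difference was 0.09 with quartiles of -0.30 and 0.45, and the values ran from -5.34 to 9.12. With the libraries scaled to their total reads on genes, the median of all genes moved by -0.22, and the calls became 957 higher and 1321 lower, so that 42.0% of called genes were higher in place of 59.6%. Directions below are those of the deposited normalization, and lists whose median changes sign with that scaling are named as such, as are the synaptic genes (0.01 to -0.21) and the nematode-specific peptides (0.12 to -0.10).

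The strains lay closer together at 8 h than at 24 h. The strain difference had quartiles 0.30 apart at 8 h and 0.74 apart at 24 h on the log2 scale. At 8 h, 166 genes (1.27%) were called higher in GMC101 and 396 (3.03%) lower, and at 24 h 1243 (9.52%) were called higher and 966 (7.4%) lower. Among the 1271 genes with a higher double difference, 895 were within 1 of CL2122 at 8 h and above it by more than 1 at 24 h. Another 109 were lower in GMC101 at 8 h and within 1 at 24 h. Among the 860 genes with a lower double difference, 494 were within 1 at 8 h and below CL2122 at 24 h, and 58 were above it at 8 h and within 1 at 24 h. In 254 of the 860 the strains stayed within 1 of each other at both times.

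**Figure D1:**
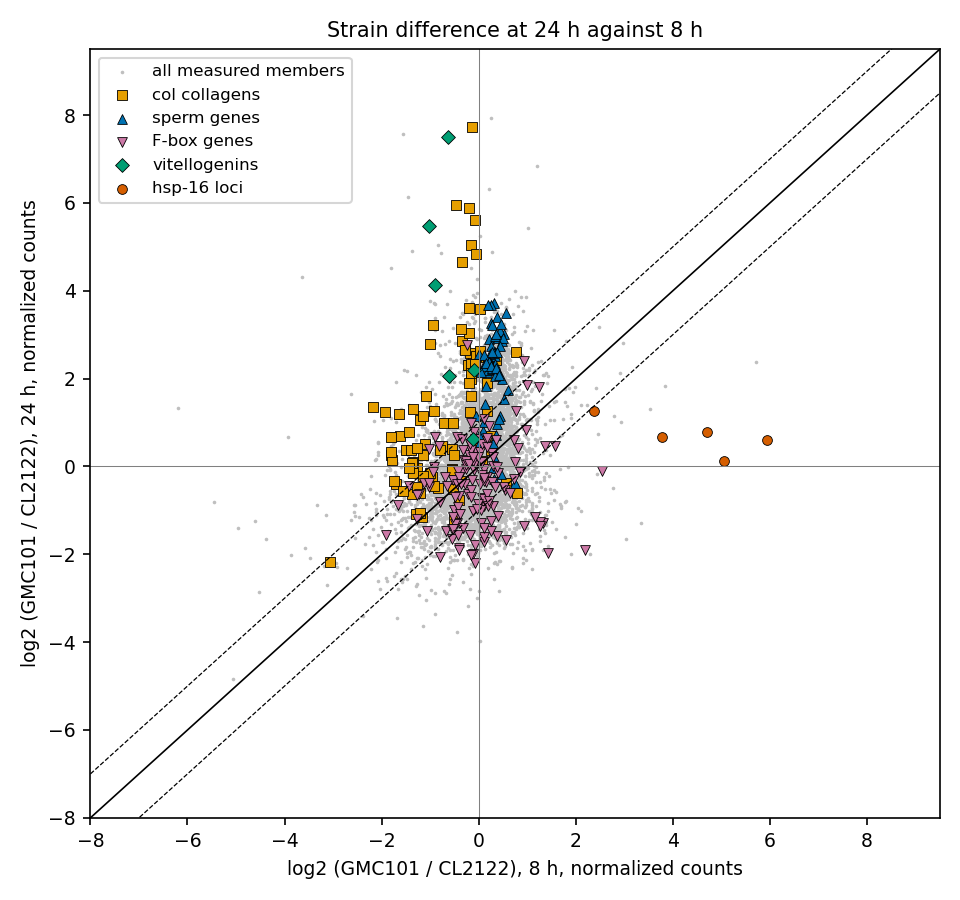
The log2 ratio of GMC101 to CL2122 in normalized counts at 24 h (vertical) is plotted against that at 8 h (horizontal), with each grey point a measured gene and coloured symbols the genes of 5 lists. The solid line marks an equal strain difference at both times and the dashed lines a double difference of 1 and -1. Vitellogenins, col collagens and sperm genes stand mostly above the upper dashed line, and 4 of the 5 measured genes of the hsp-16 loci stand below the lower one with their interval.

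Most called genes changed more over time in CL2122 than in GMC101. In the text below, a gene is said to have risen or fallen over time when its CPM changed by more than 1 on the log2 scale. In CL2122 2806 genes (21.5%) rose and 1881 (14.4%) fell, and in GMC101 1581 (12.1%) rose and 1578 (12.1%) fell. The balance depended on the scaling: with TMM factors over the 4 libraries, 2042 genes rose and 2391 fell in CL2122, and 1309 rose and 1767 fell in GMC101. The quartiles of the time change were 1.18 apart in CL2122 and 0.76 apart in GMC101. Of the 1271 genes called higher, 970 fell in CL2122: 639 of these fell in GMC101 too, 310 stayed within 1 there, and 21 rose. By contrast, 96 rose in GMC101 while CL2122 stayed within 1. Of the 860 genes called lower, 737 rose in CL2122, of which 343 also rose in GMC101, 388 stayed within 1 and 6 fell. The size of the time change was larger in CL2122 for 82.9% of the genes called higher and for 89.3% of those called lower. These shares rest on CPM, and a gene can only be called here if the time changes of its 2 strains differ.

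**Figure D2:**
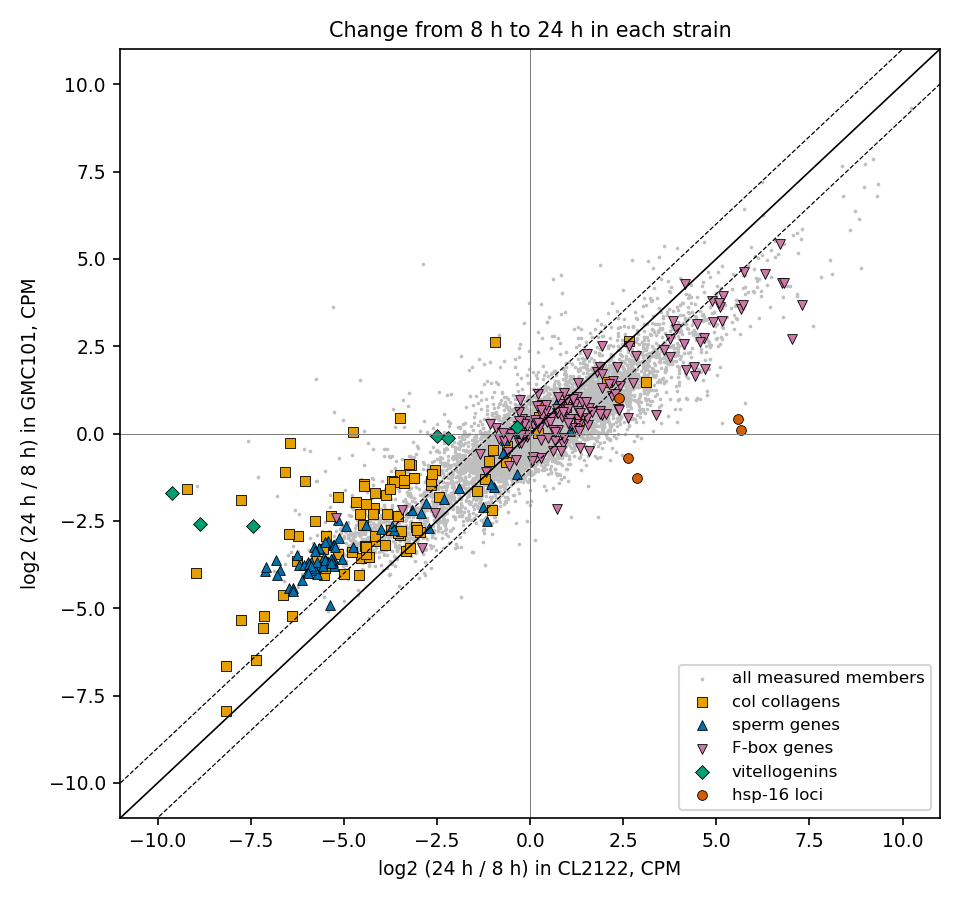
The log2 ratio of 24 h to 8 h in CPM in GMC101 (vertical) is plotted against that in CL2122 (horizontal), with grey points for all measured genes and coloured symbols for the genes of 5 lists. The solid line marks an equal change in both strains and the dashed lines changes that differ by 1. The cloud is wider along the CL2122 axis than along the GMC101 axis, with quartiles 1.18 and 0.76 apart.

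The yolk protein genes had the highest median double difference of the 40 lists. All 6 vitellogenin genes were measured, 5 were called higher and none lower, and their median was 3.85, against 0.09 for all genes. Their summed level was 44250.5 CPM in GMC101 and 53941 CPM in CL2122 at 8 h, and 39410 CPM in GMC101 and 18044 CPM in CL2122 at 24 h, so that the drop was mainly in CL2122. In whole worms, fewer cells of a type and less RNA per cell cannot be told apart. The gene vit-4 (WBGene00006928, chromosome X, 3558839 to 3563974) had 40906 normalized counts in GMC101 against 63417 in CL2122 at 8 h. At 24 h it had 15900 in GMC101 against 87.3 in CL2122. The strains were within 1.55-fold of each other at 8 h and 182-fold apart at 24 h, which gave a double difference of 8.14 (counting interval 7.84 to 8.43). In CL2122 vit-4 fell 779-fold in CPM over time, and in GMC101 3.22-fold.

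The other vitellogenin genes followed the same order with smaller values. For vit-3, the normalized counts were 37130 in GMC101 against 75347 in CL2122 at 8 h, and 7683 against 174 at 24 h (double difference 6.49). For vit-1 (chromosome X, 7727889 to 7733168) they were 61267 against 114434 at 8 h, and 12341 against 701 at 24 h (5.04). Both genes stood lower in GMC101 at 8 h and higher at 24 h. The gene vit-5 had 122310.5 normalized counts in GMC101 against 187580 in CL2122 at 8 h, and 146875 against 35441 at 24 h (2.67). The gene vit-6 (chromosome IV, 8261134 to 8266462) had 356006 against 381596 at 8 h, and 410252 against 89493 at 24 h (2.30). Both held their level in GMC101, with time changes of -0.06 and -0.12, and fell in CL2122 by 2.50 and 2.19 on the log2 scale. The gene vit-2 stood apart: it had 322886 and 351191 normalized counts at 8 h and 456688 against 295149 at 24 h, and its double difference of 0.75 was not called. The genes vit-3, vit-4 and vit-5 are near-identical copies, so that reads may be shared among them, whereas vit-6 differs from the rest in sequence.

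**Figure D3:**
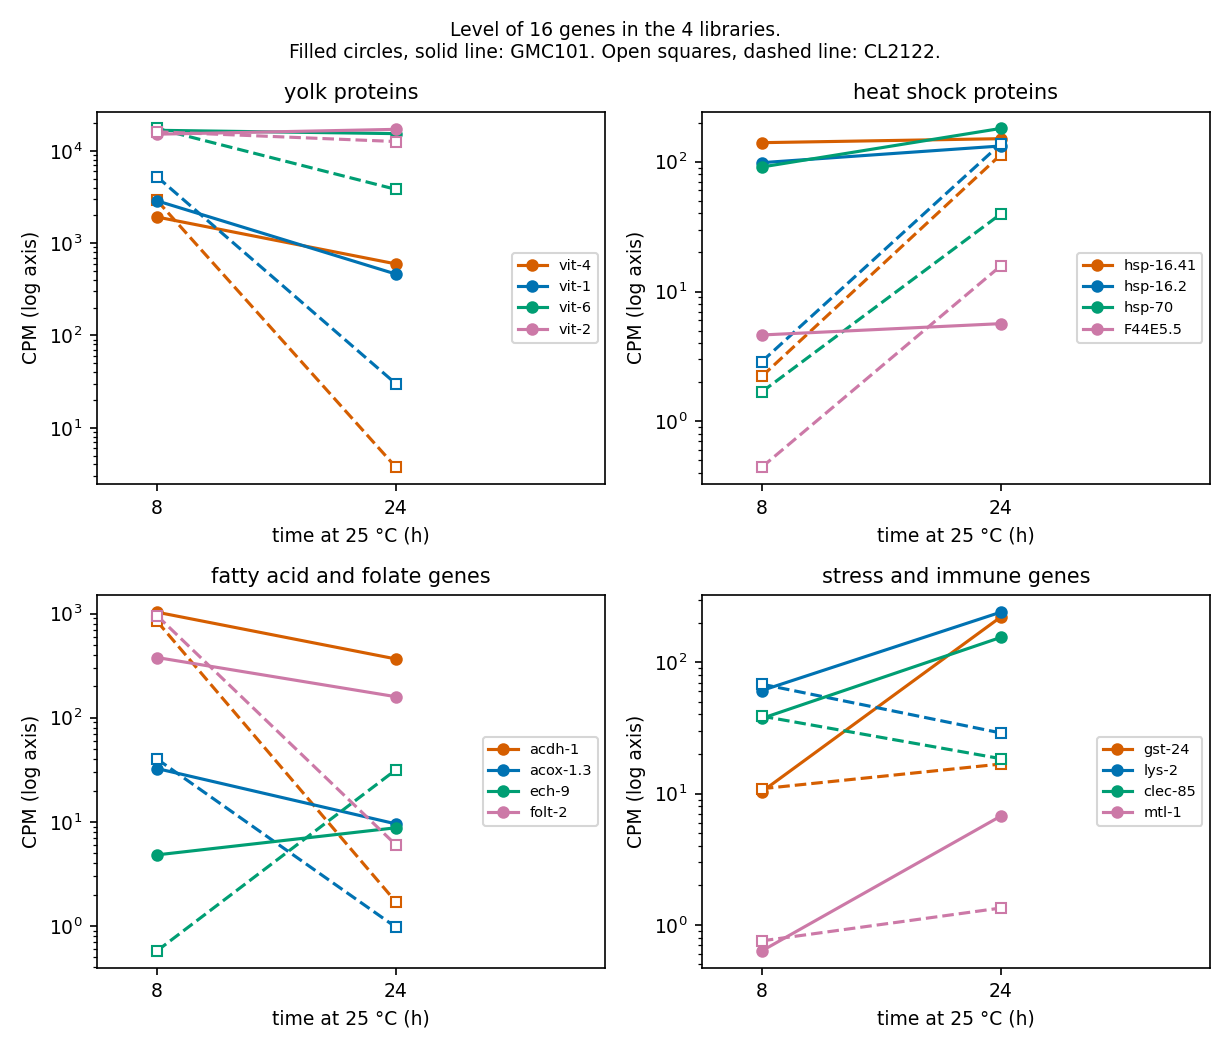
The level in CPM (vertical, log axis) of 16 genes is shown at 8 h and 24 h (horizontal), in GMC101 (filled circles, solid lines) and in CL2122 (open squares, dashed lines). Each point is the 1 deposited value of that strain and time, and no values of single replicates were available. The CL2122 lines of vit-4, vit-1, acdh-1 and folt-2 drop steeply, those of the heat shock genes climb toward the level GMC101 already had at 8 h, and gst-24, lys-2, clec-85 and mtl-1 rise in GMC101 by 4.42, 1.98, 2.049 and 3.41 on the log2 scale.

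Collagens of the cuticle gave the most genes called higher of any list. The col collagen genes encode short secreted proteins of the hypodermis, and 63 of the 91 measured were called higher and 1 lower, with a median double difference of 1.75. Another 13 col genes with at least 50 normalized counts were not measured. Over time, 79 of the 91 fell in CL2122 and 73 fell in GMC101, with median time changes of -4.16 and -2.30, so that both strains lost these RNAs and CL2122 lost more. The summed level went from 41920 to 14727 CPM in GMC101 and from 45350 to 2756 CPM in CL2122. The gene col-93 (WBGene00000668, chromosome III, 10984555 to 10985609) had 42477 normalized counts in GMC101 against 46585 in CL2122 at 8 h. At 24 h it had 17613 in GMC101 against 83.5 in CL2122, a double difference of 7.85 (7.54 to 8.15).

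For col-101, the normalized counts were 23799 in GMC101 against 33021 in CL2122 at 8 h, and 24876 against 404 at 24 h (double difference 6.42). For col-80, they were 38046 against 43534 at 8 h, and 12797 against 215 at 24 h (6.09). The copy of col-93 next to it in name, col-94, had 2563 against 2720.5 at 8 h, and 1497 against 30.4 at 24 h (5.71), and col-159 had 6360 against 7122 at 8 h, and 498 against 15.2 at 24 h (5.20). In each of these genes the strains were within 1.39-fold at 8 h, and CL2122 lost nearly all of the RNA by 24 h. Reads of near-identical collagens such as col-93 and col-94 may be shared between copies. The adult collagen col-19, a marker of the adult hypodermis, had 2180 CPM in GMC101 and 2086 CPM in CL2122 at 8 h, and 616 and 58.9 CPM at 24 h.

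The furrow and body-shape collagens, which are made at each molt, behaved in another way. Of 18 measured, 7 were called higher and none lower, with a median of 0.45. Here 11 of the 18 were called lower in GMC101 at 8 h, against 1 called higher and 2 called lower at 24 h. The gene rol-8 had 94.2 normalized counts in GMC101 against 309 in CL2122 at 8 h, and 62.2 against 67.4 at 24 h (double difference 1.60). The gene bli-2 had 40.4 against 132 at 8 h, and 18.97 against 21.8 at 24 h (1.51). The gene dpy-3 had 6.21 against 36.7 at 8 h, and 73.8 against 136 at 24 h (1.68). All 3 were lower in GMC101 at 8 h and closer to CL2122 at 24 h. In dpy-8 the order turned, with 30.0 and 73.4 normalized counts at 8 h and 24.2 against 5.69 at 24 h (3.38, counting interval 1.88 to 4.67). Over time 5 of the 18 rose and 9 fell in GMC101, and 5 rose and 11 fell in CL2122. Among those that rose, dpy-14 went from 4.14 and 4.83 at 8 h to 3345 against 6193 at 24 h (-0.67). Likewise dpy-17 went from 63.1 and 59.9 to 2724 against 4803 (-0.89), and sqt-3 had -0.04. None of these was called, and they had the highest counts of the list at 24 h.

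Hedgehog-like genes, which C. elegans uses largely in the hypodermis and in molting, held 9 called higher and none lower among 42 measured, with a median of 0.31. The largest was grd-3 (WBGene00001692), with 3981 normalized counts in GMC101 against 3913 in CL2122 at 8 h, and 1440 against 37.96 at 24 h, a double difference of 5.22 (4.75 to 5.66). It was followed by grd-14 with 4.12, grd-5 with 3.53 and grd-10 with 3.07. In all 4 the RNA fell in both strains over time, by 1.77 to 3.39 in GMC101 and by 5.08 to 6.79 in CL2122 on the log2 scale.

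Sperm genes fell in both strains and further in CL2122. The list holds major sperm proteins, which form the cytoskeleton of the crawling nematode sperm, and other genes of spermatogenesis. Of the 70 measured, 48 were called higher and 1 lower, with a median double difference of 2.11. Over time 63 fell in GMC101 and 61 in CL2122, with median changes of -3.50 and -5.37. Their summed level went from 4892 to 639 CPM in GMC101 and from 3966 to 321 CPM in CL2122. The gene nspd-4 had 549.7 normalized counts in GMC101 against 483 in CL2122 at 8 h, and 48.5 against 3.79 at 24 h (double difference 3.49). The major sperm protein gene msp-10 had 827 against 698 at 8 h, and 84.3 against 6.64 at 24 h (3.42). Related values were seen in msd-2 (3.40) and nspd-2 (3.04). At 24 h the CL2122 library held between 4 and 12 reads of these 4 genes, and major sperm protein genes are near-identical to each other, so that single members are uncertain. The Argonautes of spermatogenesis, alg-3 and alg-4, had double differences of 1.39 and 1.24. Of the 21 Argonautes measured they were the 2 called higher, and nrde-3, which acts in nuclear RNA interference, was called lower (-1.09). These counts are near the shares of all genes, 9.73% called higher and 6.59% called lower.

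Genes of the oocyte and the eggshell changed much less. Of 37 measured, 3 were called higher and 1 lower, a share of 8.11% against 9.73% of all genes. Their median was 0.49, and 35 of the 37 lay above 0. The genes perm-2 and perm-4, which make the permeability barrier of the eggshell, had double differences of 1.04 and 1.10, and cpg-9, a chondroitin proteoglycan gene, had 1.29. The caveolin gene cav-1 was called lower: it had 215 normalized counts in GMC101 against 196 in CL2122 at 8 h, and 8937 against 19910 at 24 h (-1.29, counting interval -1.57 to -1.01). Its RNA rose 33.1-fold in GMC101 and 94.7-fold in CL2122. Of 50 genes of meiosis, DNA replication and cell division, none was called in either direction, with values from -0.56 to 0.45. Their median of 0.04 changed sign to -0.19 when libraries were scaled to total reads, and to -0.03 with median-of-ratios size factors.

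Heat shock genes gave the lowest double differences. The hsp-16 loci encode small heat shock proteins that bind unfolded proteins, and 5 of their 6 genes were measured, of which 4 were called lower and none higher. The median was -3.92. Their summed level was 254 CPM in GMC101 and 6.04 CPM in CL2122 at 8 h, and 293 and 257 CPM at 24 h. GMC101 thus held a similar level at both times, and CL2122 rose to near that level by 24 h. The gene hsp-16.41 (WBGene00002018, chromosome V, 1805178 to 1805875) had 2977 normalized counts in GMC101 against 48.3 in CL2122 at 8 h, and 4004 against 2639 at 24 h. Its strain ratio went from 61.6-fold to 1.52-fold, a double difference of -5.34 (-5.74 to -4.92).

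The gene hsp-16.2 (chromosome V, 1804334 to 1804971), which is read by many reporter strains for heat shock, had 2088 normalized counts in GMC101 against 62.8 in CL2122 at 8 h, and 3518 against 3203 at 24 h. Its ratio went from 33.3-fold to 1.10-fold (-4.92). The gene hsp-16.49 had 150.1 against 5.79 at 8 h, and 77.97 against 45.6 at 24 h (-3.92), and hsp-16.1 had 92.1 against 6.76 at 8 h, and 70.6 against 44.6 at 24 h (-3.11). In both, GMC101 did not rise over time. The gene hsp-16.48 had 30.0 against 5.79 at 8 h, and 76.9 against 32.3 at 24 h, and its interval of -2.40 to 0.32 included 0. For hsp-16.11, the CL2122 library held 2 reads at 8 h against 52 in GMC101, which gave -4.05 (-5.67 to -1.83). The genes hsp-16.1 and hsp-16.11, and hsp-16.48 and hsp-16.49, are near-identical pairs, so that their reads cannot be assigned with certainty.

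The inducible HSP70 genes moved the same way. The gene hsp-70 (WBGene00002026, chromosome I, 9320325 to 9322534) had 1934 normalized counts in GMC101 against 36.7 in CL2122 at 8 h, and 4802 against 923 at 24 h. Its ratio went from 52.7-fold to 5.20-fold, a double difference of -3.34 (-3.79 to -2.85). At 24 h its ratio was larger than those of the hsp-16 genes, which were 1.10-fold (hsp-16.2) to 2.38-fold (hsp-16.48) above CL2122. The related F44E5.5 had 98.3 and 9.66 normalized counts at 8 h, and 151 against 367 at 24 h (-4.63, -5.53 to -3.61), so that CL2122 stood higher at 24 h. The constitutive members hsp-1 and hsp-110 had double differences of 0.64 and 0.66, and of the 9 measured genes of this list 2 were called lower and none higher.

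Other small heat shock proteins did not share that pattern. Of 6 measured, hsp-43 and hsp-17 were called higher, with double differences of 1.17 and 1.07, and none was called lower. The values of the other 4 were 0.45 in hsp-25, 0.02 in hsp-12.2, -0.02 in sip-1, a gene of the embryo, and -0.55 in hsp-12.3. The gene hsp-43 had 1323 normalized counts in GMC101 against 1213 in CL2122 at 8 h, and 1952 against 798 at 24 h. F08H9.3 and F08H9.4 had 3 reads or fewer in both strains at 8 h. At 24 h F08H9.3 had 47.4 normalized counts in GMC101 against 252 in CL2122.

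Among genes of stress in the endoplasmic reticulum, 1 of 20 was called lower and none higher, with a median of -0.27. The count called lower is near the share of all genes, 6.59%. The called gene was the choline kinase gene ckb-2 at -1.06. The BiP chaperone genes hsp-3 and hsp-4 had double differences of -0.50 and -0.10, and the disulfide isomerase gene pdi-6 had -0.81. The hsp-3 gene had 20627 normalized counts in GMC101 against 19485 in CL2122 at 8 h, and 24949 against 33411 at 24 h. In the mitochondrial stress list 1 of 10 was called, the chaperonin gene hsp-60, with 19167 and 19195 normalized counts at 8 h and 11435 against 4805 at 24 h (1.25, 1.20 to 1.31). It fell in both strains, by 1.07 in GMC101 against 2.10 in CL2122. The median of that list, 0.17, became -0.05 with scaling to total reads.

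Genes of lipid metabolism held some of the largest values in both directions. Of 109 measured genes of fatty acid synthesis, oxidation and binding, 19 were called higher and 3 lower, with a median of 0.23. Over all genes 9.73% were called higher and 6.59% lower. The short-chain acyl-CoA dehydrogenase gene acdh-1 (WBGene00016943, chromosome I, 6497436 to 6499560), which acts in a propionate breakdown path that worms use when vitamin B12 is low, had 21913 normalized counts in GMC101 against 18398 in CL2122 at 8 h. At 24 h it had 9770.4 in GMC101 against 39.9 in CL2122. The strains were 1.19-fold apart at 8 h and 245-fold apart at 24 h, a double difference of 7.68 (7.23 to 8.10). The related acdh-2 had 567 and 528 normalized counts at 8 h, and 159 against 20.9 at 24 h (2.83), and the peroxisomal acyl-CoA oxidase gene acox-1.3 had 691 against 874 at 8 h, and 255 against 22.8 at 24 h (3.82). All 3 fell in both strains and by more in CL2122.

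The gene ech-9, annotated as an enoyl-CoA hydratase, went the other way. It had 102 normalized counts in GMC101 against 12.6 in CL2122 at 8 h, and 234 against 737 at 24 h. GMC101 was 8.16-fold above CL2122 at 8 h and 3.15-fold below it at 24 h, a double difference of -4.68 (-5.48 to -3.79). The folate transporter gene folt-2 (WBGene00018138, chromosome V, 2872465 to 2875600) turned in the opposite direction, from 8047 in GMC101 against 20810 in CL2122 at 8 h to 4239 against 140.5 at 24 h (6.29, 6.04 to 6.52). Around folt-2, between 2 and 4 Mb of chromosome V, GMC101 was lower at both times: over the 205 measured genes there, the median strain difference was -1.13 at 8 h and -1.23 at 24 h. The median double difference over these genes was 0.06, a value whose sign depends on the scaling, with 34 called higher and 20 lower. These were 16.6% and 9.76%, against 9.73% and 6.59% of all genes.

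In genes of defence, more genes rose over time in GMC101 than fell. Of 59 measured lysozyme, antimicrobial peptide and infection-response genes, 26 were called higher and 2 lower, 44.1% and 3.39%, with a median of 0.96. Over time 19 rose and 9 fell in GMC101, and 15 rose and 17 fell in CL2122. The lysozyme gene lys-2 (WBGene00003091) had 1293 normalized counts in GMC101 against 1480.0 in CL2122 at 8 h, and 6400.2 against 675 at 24 h, a double difference of 3.44 (3.28 to 3.59). It rose 3.95-fold in GMC101 and fell 2.35-fold in CL2122. The gene dod-19 had 1849.8 against 2339.8 at 8 h, and 2787 against 440.4 at 24 h (3.001), and the invertebrate lysozyme gene ilys-5 had a double difference of 2.85. The gene irg-1, induced by translation inhibition and by Pseudomonas, differed from these: it had 7.25 normalized counts in GMC101 against 178 in CL2122 at 8 h, and 147 against 346 at 24 h (3.38, 2.20 to 4.38), so that GMC101 was lower at both times.

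C-type lectins, many of which are secreted by the intestine upon infection, held 23 called higher and 6 lower among 86 measured, with a median of 0.50. Over all genes 9.73% were called higher and 6.59% lower, and the lectins called lower were near that share. The gene clec-85 had 793 normalized counts in GMC101 against 844 in CL2122 at 8 h, and 4112 against 430.0 at 24 h (3.35). The gene clec-41 had 1153 against 1599.8 at 8 h, and 4120.3 against 769 at 24 h (2.89). Both rose in GMC101 and fell in CL2122, and clec-86 did so too (2.88). In clec-67 the order of the strains turned, from 77.6 against 157 at 8 h to 887 against 233 at 24 h (2.95). Transthyretin-related genes held 14 called higher and 1 lower among 44 measured, with a median of 0.69, and ttr-44 turned from 175 and 571 normalized counts at 8 h to 1002 against 495 at 24 h (2.72).

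Genes of detoxification held more genes called higher than lower. Among 89 glucuronosyltransferase and glutathione transferase genes, 23 were called higher and 8 lower, with a median of 0.26. Among 49 cytochrome P450 genes 9 were called higher and 3 lower. Of all genes 9.73% were called higher and 6.59% lower, and the counts called lower in both lists were near that share. The gene gst-24 (WBGene00001772, chromosome II, 13610443 to 13611349) had 219 normalized counts in GMC101 against 237 in CL2122 at 8 h, and 5877 against 391 at 24 h, a double difference of 4.02 (3.71 to 4.32). It rose 21.4-fold in GMC101, and its CPM at 24 h was 1.54-fold that at 8 h in CL2122, so that the larger change was in GMC101. The gene ugt-48 had 354 against 458 at 8 h, and 1654 against 279 at 24 h (2.94). By contrast, ugt-18 rose in both strains, from 15.5 against 3.86 at 8 h to 464 against 1149 at 24 h (-3.32, -4.72 to -1.67), on 4 reads in CL2122 at 8 h. The P450 gene cyp-13A12 turned from 249 and 115 to 474 and 1044 (-2.26), and cyp-13A2 from 171 and 301 to 100.1 and 26.6 (2.73).

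The insulin receptor pathway and its DAF-16 targets held 8 called higher and none lower among 29 measured, while their median of 0.20 became -0.03 with scaling to total reads. The list takes targets whichever way DAF-16 regulates them, so that its counts give no direction of DAF-16 activity. The called genes were targets such as mtl-1, a metallothionein, which had 13.5 normalized counts in GMC101 against 16.42 in CL2122 at 8 h, and 179 against 31.3 at 24 h (2.80, 1.62 to 3.93). The superoxide dismutase gene sod-3 turned from 26.9 against 81.1 at 8 h to 70.6 against 28.5 at 24 h (2.90), and dod-24 went from 264 and 288 to 1458 and 233 (2.77). Metallothioneins, ferritins and other metal-response genes held 4 called higher and 1 lower among 14 measured. The insulin-like peptide genes, which are ligands of the DAF-2 receptor, held 4 called lower and none higher among 15 measured. Over all genes 6.59% were called lower and 9.73% higher. The gene ins-34 had 50.7 and 20.3 normalized counts at 8 h, and 129.6 against 485 at 24 h (-3.23), and ins-37 had 109 against 71.5 at 8 h, and 66.4 against 197 at 24 h (-2.18). The other called members were ins-23 at -1.31 and ins-28 at -1.03.

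More muscle genes fell over time in CL2122 than in GMC101. Of 46 measured sarcomere genes, 14 were called higher and none lower, with a median of 0.73, and over time 13 fell in GMC101 and 31 in CL2122. Their summed level went from 15101 to 9314 CPM in GMC101 and from 16698 to 6065 CPM in CL2122. The troponin I gene tni-1 had 980.3 normalized counts in GMC101 against 804 in CL2122 at 8 h, and 678 against 99.7 at 24 h (2.48), and the troponin T gene mup-2 had 8973 against 11129 at 8 h, and 5686 against 1779 at 24 h (1.99). The gene unc-54 (WBGene00006789, chromosome I, 14855901 to 14863573), the source of the transgenes' promoter, had 62227 against 91957 at 8 h, and 54530 against 24167 at 24 h. GMC101 was 1.48-fold below CL2122 at 8 h and 2.26-fold above it at 24 h (1.74, 1.71 to 1.76). The transgene carries unc-54 3′ sequence in GMC101, and whether its reads were counted to unc-54 was not tested. The pharyngeal myosin genes myo-1 and myo-2 had values of -0.65 and -0.48, below 0, unlike those of the body wall. The intestinal marker promoter's gene mtl-2 had 411 against 672 at 8 h, and 388 against 149.97 at 24 h (2.08, 1.76 to 2.40).

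The study followed lysosomal and autophagy genes. Of 42 measured lysosomal protease, lipase and glycosidase genes, 8 were called higher and 3 lower, 19.05% and 7.14%, with a median of 0.01 that became -0.22 with scaling to total reads. The aspartyl protease gene asp-13 (chromosome V, 8641491 to 8643225) had 5648 normalized counts in GMC101 against 5758 in CL2122 at 8 h, and 5828 against 305 at 24 h (4.29, 4.11 to 4.45), and asp-17 had 38.3 against 55.1 at 8 h, and 169 against 18.98 at 24 h (3.67). The cathepsin B gene cpr-1 turned the other way, from 4117 against 2014 at 8 h to 11312 against 22959 at 24 h (-2.052). The related cpr-5 and cpr-8 were higher in GMC101 at both times, with double differences of 0.41 and 0.65 that were not called. All 22 subunit genes of the V-ATPase, the proton pump of lysosomes and other membranes, lay above 0, with a median of 0.48. Of all 13058 measured genes, 7459 lay above 0. Among the 22, 2 were called higher, vha-6 (1.31) and vha-3 (1.01). That count is near the share of all genes, of which 9.73% were called higher and 6.59% lower. The gene vha-6 had 7626 and 7329.6 normalized counts at 8 h and 7605 against 2953 at 24 h, and vha-12 and vha-5 had 0.96 and 0.95. With scaling to total reads the V-ATPase median was 0.26.

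Among 30 autophagy genes, 3 were called lower and none higher, with a median of -0.32, and 23 lay below 0. Of all 13058 measured genes, 6.59% were called lower and 9.73% higher, and 5599 lay below 0. Over time 9 rose and 1 fell in GMC101, whereas 20 rose and none fell in CL2122. With TMM factors over the 4 libraries, 8 rose in GMC101 and 12 in CL2122. The gene epg-2, which links aggregates to autophagosomes in embryos, had 123.2 normalized counts in GMC101 against 126 in CL2122 at 8 h, and 2173 against 6355 at 24 h (-1.52, -1.89 to -1.16). The gene atg-2 had 649 in both strains at 8 h, and 2008 against 4273 at 24 h (-1.09), and atg-16.2 had 402 against 369 at 8 h, and 970.3 against 1818 at 24 h (-1.03). The RNA of epg-2 and atg-2 rose in both strains and that of atg-16.2 in CL2122, where its time change was 2.20 against 0.95 in GMC101. The LC3 homologue gene lgg-1 had 5614 against 5714 at 8 h, and 14877 against 19617 at 24 h (-0.37), bec-1 had -0.32 and vps-34 had -0.57, and none of these was called. Of the 38 measured genes that the study names, which include the heat shock genes above, 3 were called higher and 6 lower.

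Genes of protein synthesis and turnover gave few calls. All 33 proteasome subunit genes lay above 0, from 0.14 to 0.89, and none was called, with a median of 0.55. Of 78 cytosolic ribosomal protein genes, 76 lay above 0, the median was 0.48, and 1 was called, rps-28 at 1.09. The subunit gene pas-2 had 7810.0 normalized counts in GMC101 against 5829 in CL2122 at 8 h, and 7633 against 3071 at 24 h (0.89). These medians were 0.33 and 0.26 with scaling to total reads. Of 47 nuclear genes of the respiratory chain, 1 was called higher, the cytochrome c gene cyc-2.2 (2.91), and the median was 0.37. Mitochondrial ribosomal protein genes held no called gene among 67, and their median of 0.19 became -0.04 with scaling to total reads.

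**Figure D4:**
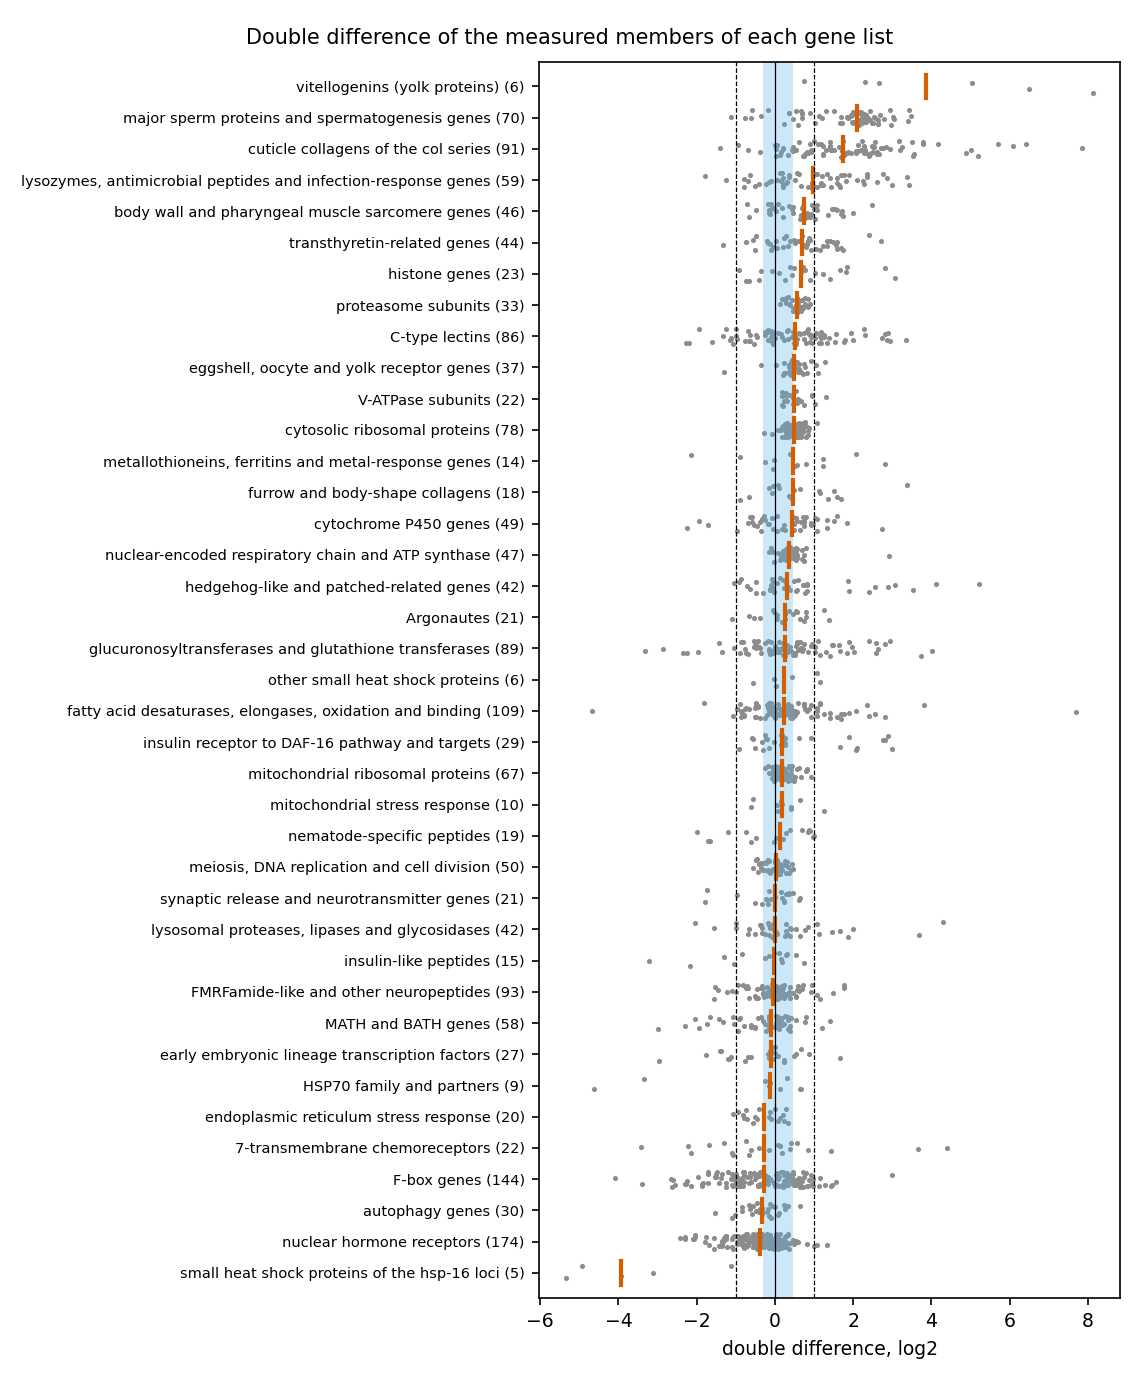
The double difference on the log2 scale (horizontal) is shown for each measured gene (grey points) of 39 gene lists, ordered by median (orange bars), with the number of measured genes in brackets. The blue band spans the quartiles of all measured genes, -0.30 to 0.45, and dashed lines mark -1 and 1. Vitellogenins (3.85), sperm genes (2.11) and col collagens (1.75) have the highest medians and the hsp-16 loci (-3.92) the lowest.

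Several large regulatory families held more genes called lower than higher. A gene with few counts could be taken here through CL2122 at 24 h alone. Of measured genes in 5 bins of mean normalized counts, 14.5% were called lower in the lowest bin and 1.34% in the highest. The part of both in the shares of these families was not tested. F-box genes, which encode substrate adaptors of ubiquitin ligases and form a very large family in C. elegans, held 32 called lower and 6 higher among 144 measured of 209, 22.2% and 4.17%, against 6.59% and 9.73% of all genes. Their median was -0.28, and the summed level of the family went from 1066 to 1753 CPM in GMC101 and from 1052 to 3116 CPM in CL2122. Among those called, fbxb-103 had 17.6 normalized counts in GMC101 against 3.86 in CL2122 at 8 h, and 144 against 541 at 24 h (-4.09, -5.48 to -2.44). The gene fbxb-53 had 10.35 against 3.86 at 8 h, and 167.5 against 656 at 24 h (-3.39). Both rest on 4 reads in CL2122 at 8 h. In the other direction fbxa-72 went from 667 and 783 to 155 and 22.8 (2.999). The 65 F-box genes not measured had 3 reads or fewer in at least 1 library.

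Nuclear hormone receptors, a family of ligand-regulated transcription factors that is greatly expanded in nematodes, held 29 called lower and 2 higher among 174 measured, 16.7% and 1.15% against the same shares of all genes, with a median of -0.38. Of these genes 132 lay below 0. Over time 82 rose in CL2122 and 30 in GMC101. The gene nhr-168 had 52.8 normalized counts in GMC101 against 33.8 in CL2122 at 8 h, and 240.2 against 820.1 at 24 h (-2.41). The gene nhr-201 turned from 55.9 and 23.2 to 196 and 401 (-2.30). MATH and BATH genes, which also encode adaptor proteins, held 10 called lower and 2 higher among 58, 17.2% and 3.45%, and math-34 had 12.4 against 7.73 at 8 h, and 57.9 against 286 at 24 h (-2.99).

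Genes of the early embryo, whose RNA is present in whole adults that carry eggs, held 6 called lower and 1 higher among 27 measured, with a median of -0.11. The skn-1-dependent gene sdz-30 had 9.32 normalized counts in GMC101 against 3.86 in CL2122 at 8 h, and 184 against 597 at 24 h (-2.97). The summed level of the list went from 629 to 890 CPM in GMC101 and from 596 to 1289 CPM in CL2122. Over time 12 genes of the list rose in GMC101 and 15 in CL2122, and 1 fell in each, with median changes of 0.78 and 2.13. The embryonic marker pal-1 lay between 112.2 and 133 CPM in all 4 libraries, and end-3 between 0.195 and 0.773 CPM. From 8 h to 24 h, end-1 went from 0.0487 to 1.62 CPM in GMC101 and from 0.0888 to 1.46 CPM in CL2122. Its values at 8 h were below the minimum of 3 reads. The part of embryos in these values was not tested. Other genes with large lower values were jmjd-3.2, a histone demethylase gene, with 14.5 against 3.86 at 8 h and 489 against 1952 at 24 h (-3.91), and the bZIP factor gene zip-8, which is also on the metal-response list, with 19.7 against 10.6 at 8 h and 2024 against 4854 at 24 h (-2.15). In zip-8 the RNA rose 82.1-fold in GMC101 and 426-fold in CL2122.

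Neuropeptide genes were called less often than all genes in both directions. Of 93, 5 were called higher and 5 lower, 5.38% each against 9.73% and 6.59% of all genes. Of 21 synaptic genes none was called higher and 2 lower, a count near the share of all genes called lower. The 2 were unc-10 (-1.79), a gene of the synaptic active zone, and cat-2 (-1.74), the tyrosine hydroxylase gene of dopamine neurons. The gene unc-10 had 164 normalized counts in GMC101 against 158 in CL2122 at 8 h, and 177 against 592 at 24 h. The neuronal marker snb-1 lay between 163 and 249 CPM in the 4 libraries. Of 450 chemoreceptor genes in both tables, 45 reached 50 normalized counts and 22 were measured. Among these 22, 3 were called higher and 5 lower, 13.6% and 22.7%, against 9.73% and 6.59% of all genes. The gene srh-237 had 542 against 268 at 8 h, and 448 against 10.44 at 24 h (4.40). The pseudogene str-179 had 8.28 against 3.86 at 8 h, and 22.1 against 111 at 24 h (-3.43), so that it reached 50 in CL2122 at 24 h alone. Of 19 nematode-specific peptide genes 3 were called lower, and nspc-12 went from 82.8 and 5.79 to 94.8 and 26.6 (-2.002). Of 23 histone genes 7 were called higher and none lower, and his-10 had the largest value at 3.06, on 8 to 99 reads per library.

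Where a library held 0 reads, a bound was computed against 3 reads. The C-type lectin gene clec-209 (WBGene00021224, chromosome V, 2351676 to 2352932) had 55 reads in GMC101 against 320 in CL2122 at 8 h, and 389 against 0 at 24 h, so that its double difference was at least 9.61. Like folt-2 it lies between 2 and 4 Mb. The gene tag-18 had 0 reads in GMC101 against 1596 in CL2122 at 8 h, and 7 against 203 at 24 h, a double difference of at least 4.25, and fis-1 had 179 against 137 at 8 h, and 25 against 0 at 24 h, at least 2.72. In the lower direction oac-18 had 8 and 0 reads at 8 h, and 34 against 92 at 24 h, which put its double difference at -2.80 or lower. The F-box genes fbxb-71 and fbxb-102 likewise held 0 reads in CL2122 at 8 h, with bounds of -2.67 and -2.30.

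The strains changed places in 57 measured genes, whose strain difference was called in opposite directions at 8 h and 24 h. Of these, 33 were lower in GMC101 at 8 h and higher at 24 h, and 24 were higher at 8 h and lower at 24 h. Those named above include vit-3, folt-2, sod-3, ttr-44, clec-67 and dpy-8 in the first group, and ech-9, F44E5.5, ins-34, nhr-201, cpr-1 and cyp-13A12 in the second.

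Called genes were not spread evenly over chromosomes, expression levels and lengths. The share called higher was 12.8% on chromosome IV, 12.7% on V, 9.73% on X, 9.08% on II, 7.76% on I and 5.82% on III. The share called lower was 9.39% on X and 7.75% on II, and 4.93% to 7.30% on the others. The median on X was -0.13 and those of the other 5 chromosomes lay between 0.07 and 0.16. Scaling to total reads moved the median of all genes by -0.22, so that the sign of these 5 medians depends on the scaling. The densest megabase for genes called higher was chromosome IV from 5 to 6 Mb with 38, of which 10 were on the sperm list, and for genes called lower chromosome II from 1 to 2 Mb with 24, of which 10 were F-box or MATH genes. With genes in 5 equal bins, from the lowest to the highest mean normalized counts, the share called lower went from 14.5% to 1.34% and the share called higher from 12.4% to 5.67%. From the bin of the shortest genes to that of the longest, the share called higher went from 15.1% to 3.83%, and the share called lower lay between 6.17% and 7.31%. Counts and gene length move with the lists described above, and their part in these shares was not tested.

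**Figure D5:**
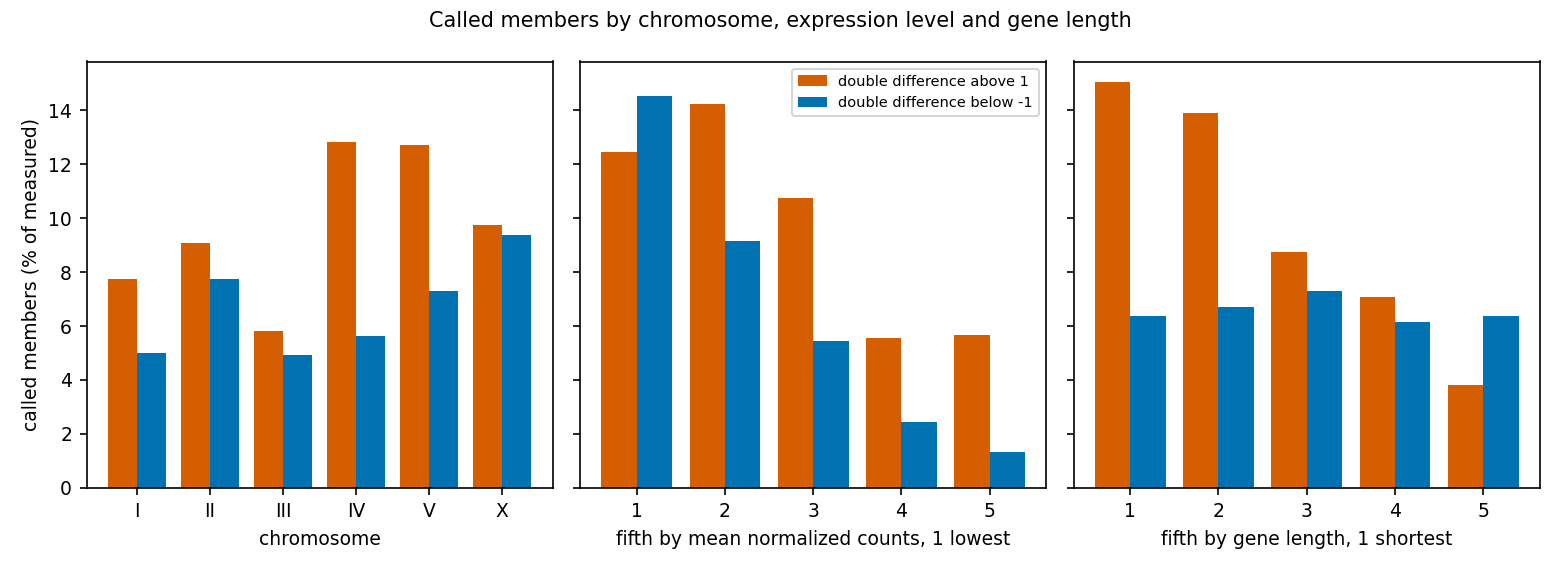
The percentage of measured genes called higher (orange) and lower (blue) is shown by chromosome, by bin of mean normalized counts and by bin of gene length (5 equal bins each). Bars start at 0. Genes called higher are most frequent on chromosomes IV and V (12.8% and 12.7%) and among short genes (15.1%), and genes called lower among genes with few counts (14.5%).

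The minimum of 50 normalized counts decided which genes were taken. The genes just inside it were npr-30, R13A1.10 and R11D1.12, whose double differences were 0.14, 0.20 and -0.09. Those just outside were dylt-3, kvs-1 and twk-10, with -0.63, -0.96 and -1.13.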

How the data were processed

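Whole-worm RNA of GMC101 and CL2122 at 8 h and 24 h was sequenced by the authors as paired reads of an Illumina NovaSeq library (NEBNext Ultra). The submitters' processing notes name HISAT2 2.05, StringTie 1.33 and DESeq2, with no role for each. The build and the counting of strand are not given in the sources used here. The authors deposited 1 table per time with a normalized signal per gene and strain, which are read counts scaled within each table. Dividing each column by its step gave whole reads for 100% of values within a tolerance of 0.1. Further columns hold the authors' log2 fold changes, p-values and adjusted p-values and were not used. There were 0 other columns of single samples. How the 10 labelled samples were combined is not stated.

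Tables were joined by gene identifier. Counting intervals at 95% followed Woolf's method with 0.5 added to each read count. A minimum of 3 reads corresponds to 0.119 to 0.146 CPM. Of the members, 13485 are in the Ensembl WBcel235 annotation and overlap their deposited position there, and 46 are unnamed loci. Loci that name no gene took under 0.05% of reads in each library. Members were grouped by 40 symbol lists. The members and lists were chosen with earlier results of these data known. Genes were named by rule: the 10 with the largest called values in each direction and a symbol of their own, the 3 largest bounds in each direction, the 4 largest of each list or all of lists with 8 or fewer, the genes the study names, unc-54 and mtl-2. Markers, list extremes and members near the minimum are further names. Alternatives were other scalings, pseudocounts of 1 and 5, filters, a fold limit of 2 and assumed coefficients of 0.1, 0.2 and 0.4, tested on simulated data. Python 3.11.15, numpy 2.4.6, pandas 2.3.3 and matplotlib 3.10.9 were used with R 4.3.3, with edgeR 4.0.16 for the likelihood ratio test and DESeq2 1.42.0 for size factors.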

Additional observations from a re-analysis of the deposited data

Results flagged for a closer look

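In 16 of the named genes the strain difference was beyond 1 in opposite directions at 8 h and 24 h, with 1 library per strain and time, so that the difference between the times was not tested. The genes that were lower in GMC101 at 8 h and higher at 24 h were vit-3 (double difference 6.49), folt-2 (6.29), gst-29 (3.74), dpy-8 (3.38), clec-67 (2.95), sod-3 (2.90) and ttr-44 (2.72). Those that were higher in GMC101 at 8 h and lower at 24 h were ech-9 (-4.68), F44E5.5 (-4.63), fbxb-103 (-4.09), jmjd-3.2 (-3.91), ugt-18 (-3.32), ins-34 (-3.23), nhr-201 (-2.30), cyp-13A12 (-2.26) and cpr-1 (-2.05). Of these, fbxb-103, jmjd-3.2 and ugt-18 had 4 reads each in CL2122 at 8 h, whereas cpr-1 had at least 2085 reads in every library.

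Genes listed at 1 time only took no part in the double difference. At 24 h, 155 such genes had at least 50 normalized counts in a strain, and 153 of them were lower in GMC101. At 8 h there were 8 such genes, of which 7 were lower in GMC101. Neither set was tested.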

How the results depend on the processing

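No paired analysis was possible because the deposited columns carry 1 value per strain and time and no replicate number, and for the same reason no replicate could be left out. Against 1271 genes called higher and 860 lower, scaling to total reads on genes gave 1321 lower. A minimum of 50 normalized counts in each column gave 593 higher and 333 lower, and a minimum of 200 in 1 or more columns gave 486 lower. A limit of 2 on the log2 scale gave 431 and 152. An edgeR likelihood ratio test on the recovered reads with an assumed coefficient of variation, an adjusted p under 0.05 and the same fold called 571 lower at a coefficient of 0.1, 350 higher and 54 lower at 0.2, and 22 higher and 2 lower at 0.4. It compares the 4 libraries, not the conditions, so that the counts rest largely on the variation assumed between worm populations. Median-of-ratios size factors, TMM factors over the 4 libraries, pseudocounts, no filter, a minimum of 10, protein-coding genes only, the fold alone and leaving out chromosome V from 2 to 4 Mb kept both counts within 1.5 times. So did leaving out the vitellogenin, col collagen and sperm lists, added after the data were seen (1155 higher and 858 lower). Of 225 gene and list values, scaling to total reads moved 89 by more than their counting interval, size factors moved 21, and the pseudocounts moved 0. No named gene that was called changed direction under the other scalings and pseudocounts. Low depth limits the genes called lower, some of which rest on 4 to 10 reads in CL2122 at 8 h. Promoter motifs were not analysed here.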

Other observations

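The 155 genes with at least 50 normalized counts that were listed at 24 h only held 38 F-box genes, all of them lower in GMC101, with a median log2 ratio of GMC101 to CL2122 of -1.89. Over all 155 the median was -1.60, against a median strain difference of 0.07 over all measured genes at 24 h. Genes could reach the minimum of 50 through CL2122 alone. The F-box gene fbxb-66 had 763 normalized counts in GMC101 against 1422 in CL2122, and fbxc-25 had 274 and 1272. The metalloprotease gene hch-1, which is needed for hatching, had 645 and 1362. Another 15 of the 155 were chemoreceptor genes and 8 were genes of the early embryo, again all lower in GMC101. The 1 C-type lectin gene among them was higher.

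Among the 8 genes listed at 8 h only, 3 belonged to the abu family, named for genes activated when the unfolded protein response is blocked: abu-15 had 39.3 normalized counts in GMC101 against 133 in CL2122, abu-1 had 28.99 and 108, and abu-6 had 12.4 and 84.0. The fungus-induced-related gene fipr-7 was the exception, with 100.4 in GMC101 against 54.1 in CL2122. The genes in these paragraphs outside the gene lists were named after their values were seen.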
